A study of Homo sapiens with 78 samples.

Results

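Transcript levels of 10 genes that encode enzymes of glycolysis and lactate formation were followed in single A375 and Jurkat cells: HK1, HK2, PFKP, ALDOA, TPI1, PGK1, ENO1, PKM, LDHA and LDHB. The genes were chosen by name as enzyme isoforms and paralogs, with earlier results of these data known, as were the lists of related genes below. The values of all transcripts annotated to a gene were added up in each well. They are 10 of the 62744 genes and unmatched transcripts in the files. All 10 passed the filter on low counts in every comparison.

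A375 is a human melanoma line, grown in DMEM and sorted into PBS after staining for CD47. Jurkat clone E6-1 is a human T cell leukemia line, grown in RPMI and sorted into lysis solution after staining for CD81. Both lines were also stained with 7-AAD, a dye that enters dead cells. No cells were treated or genetically altered. Total RNA libraries were made from single cells with 1 of 2 reagent kits, the SMART-Seq Stranded Kit (#634444) or kit #634413, a SMARTer Stranded Total RNA-Seq kit in its v2 Pico Input Mammalian form. Cell line, medium, stain and sort solution changed together and cannot be told apart. The 78 wells were labelled as 21 of A375 and 18 of Jurkat per kit. After 12 A375 wells with too few or mostly non-coding counts had been left out, 15 A375 and 18 Jurkat cells per kit remained, with 327162 to 2567265 estimated counts each (median 867246).

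The marker lists went with the labels. The 12 A375 markers held more counts than the 12 Jurkat markers in all 15 kept A375 cells of each kit, and the reverse was seen in all 18 Jurkat cells of each kit. Their sums ranged from 712 to 6135 counts for the A375 list in A375 cells and from 0 to 42 counts for the Jurkat list there. In Jurkat cells, the Jurkat list held 788 to 5540 counts and the A375 list 117 to 883. CD3D, CD3E, LCK, TRAC and TRBC2 had no count in A375 cells of either kit. Of the melanocyte genes in the A375 list, PMEL, MLANA, TYR and S100B had a median of 0 in A375, so the list rested there on SOX10, S100A6, VIM and others.

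Each library is 1 cell, and the labels name no separate cultures, so each of the 4 groups counts as 1 sample. No test between lines or kits was therefore made and no p-value is given. The SD is the spread between cells. A fold is the ratio of the counts summed over the cells of a group, each sum scaled to its summed library, and its 95% interval covers counting error only. Genes are described as past 2-fold where the ratio reached 2 in either direction. Levels of different genes are set side by side as TPM, the level per transcript length scaled to the library.

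Glycolysis turns glucose into pyruvate in the cytosol and yields ATP and NADH. Hexokinases (HK1, HK2) trap glucose by phosphorylation, phosphofructokinase makes the committed step, and aldolase and triosephosphate isomerase form the triose phosphates. Phosphoglycerate kinase and pyruvate kinase make ATP, with enolase between them. Lactate dehydrogenase converts pyruvate to lactate and back, as tetramers of LDHA and LDHB subunits. Proliferating and transformed cells are known for high glycolytic flux.

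Most of the pathway stood lower in A375 than in Jurkat cells. With #634413, 7 of the 10 genes were past 2-fold lower in A375 (PFKP, ALDOA, TPI1, PGK1, ENO1, PKM and LDHA), where 22.3% of the 11614 genes compared were. With #634444 it was 8 of 10, the same 7 and HK2, where 21.1% of 12607 genes were. Because the members were chosen with earlier results of these data known, these counts are a description. Under other scalings and filters the number of members past 2-fold lower ran from 7 to 8 with #634413 and from 4 to 8 with #634444. With that kit HK2 and TPI1 were nearest to the 2-fold line, and in mean log2(TPM + 1) ENO1 and PKM also fell under it, at -0.99 and -0.80, as they did with log2(TPM + 10), at -0.97 and -0.78. On these scales the median of all genes with #634444 was itself shifted, to 0.43 and 0.14. In summed counts no member was past 2-fold higher in A375, where 25.6% and 24.6% of all genes were, but in mean log2(TPM + 1) HK1 with #634444 was, at 1.31. The median log2 fold of A375 over Jurkat over the 10 members was -1.55 with #634413 and -1.21 with #634444, beside 0.01 and -0.01 over all genes compared.

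**Figure D1:**
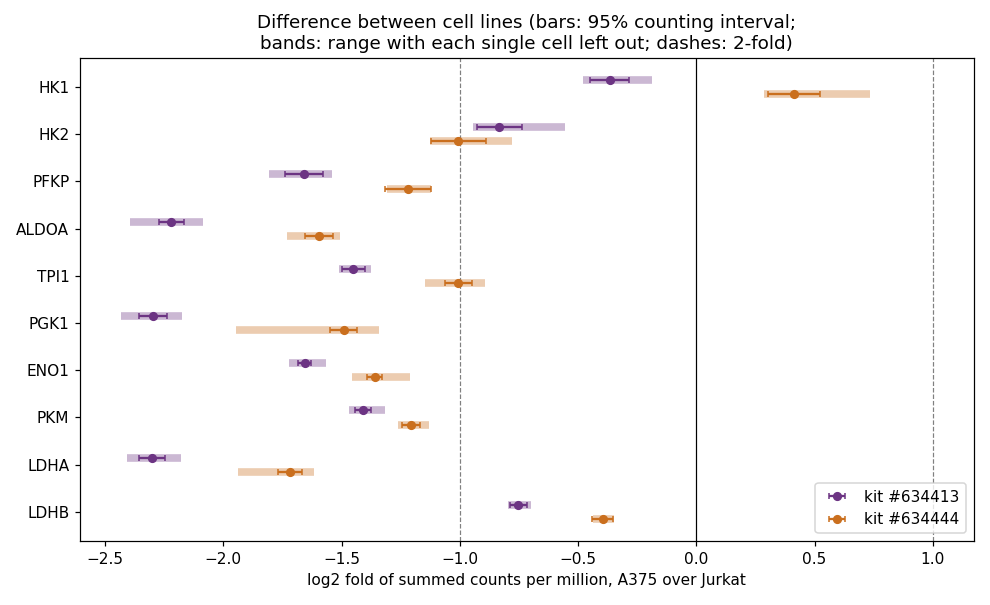
Log2 fold of A375 over Jurkat for the 10 genes in summed counts scaled to the summed library (x axis), by gene (y axis) and kit (colour). Points are the folds of 15 A375 against 18 Jurkat cells, bars are 95% counting intervals, bands show the range when each single cell is left out, and dashed lines mark 2-fold. LDHA, PGK1 and ALDOA lie farthest to the left with #634413, at -2.30, -2.30 and -2.22, and HK1 changes side of 0 between the kits on this scale, though not in mean log2(TPM + 1).

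Summed over the 10 genes, the members took 0.400 ± 0.067% of protein coding counts in A375 (SD, n = 15 cells) and 1.22 ± 0.509% in Jurkat (n = 18) with #634413. The ranges were 0.293 to 0.505% in A375 and 0.546 to 2.24% in Jurkat, so no A375 cell reached the lowest Jurkat cell. With #634444 the means were 0.458 ± 0.219% and 1.03 ± 0.513%. Here the ranges of 0.252 to 1.18% and 0.562 to 2.01% overlapped, with 1 A375 cell at 1.18% and the next at 0.573%. The highest of these, A375 #634444 cell 20, held the highest level of its group for 6 members (ALDOA, TPI1, PGK1, ENO1, PKM and LDHA), and without it 8 of 10 members were still past 2-fold lower in A375.

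In the order of median TPM, LDHB led in A375 with both kits, followed by ENO1 and PKM. In Jurkat cells, ENO1 led with #634413 and LDHA with #634444. LDHA stood at rank 6 and rank 4 in A375 and at rank 2 and rank 1 in Jurkat. HK1 and HK2 were the lowest of the 10 in every group. The spread between cells was wide, and for none of the 9 neighbouring pairs of any group were the means apart by more than the sum of their SDs.

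**Figure D2:**
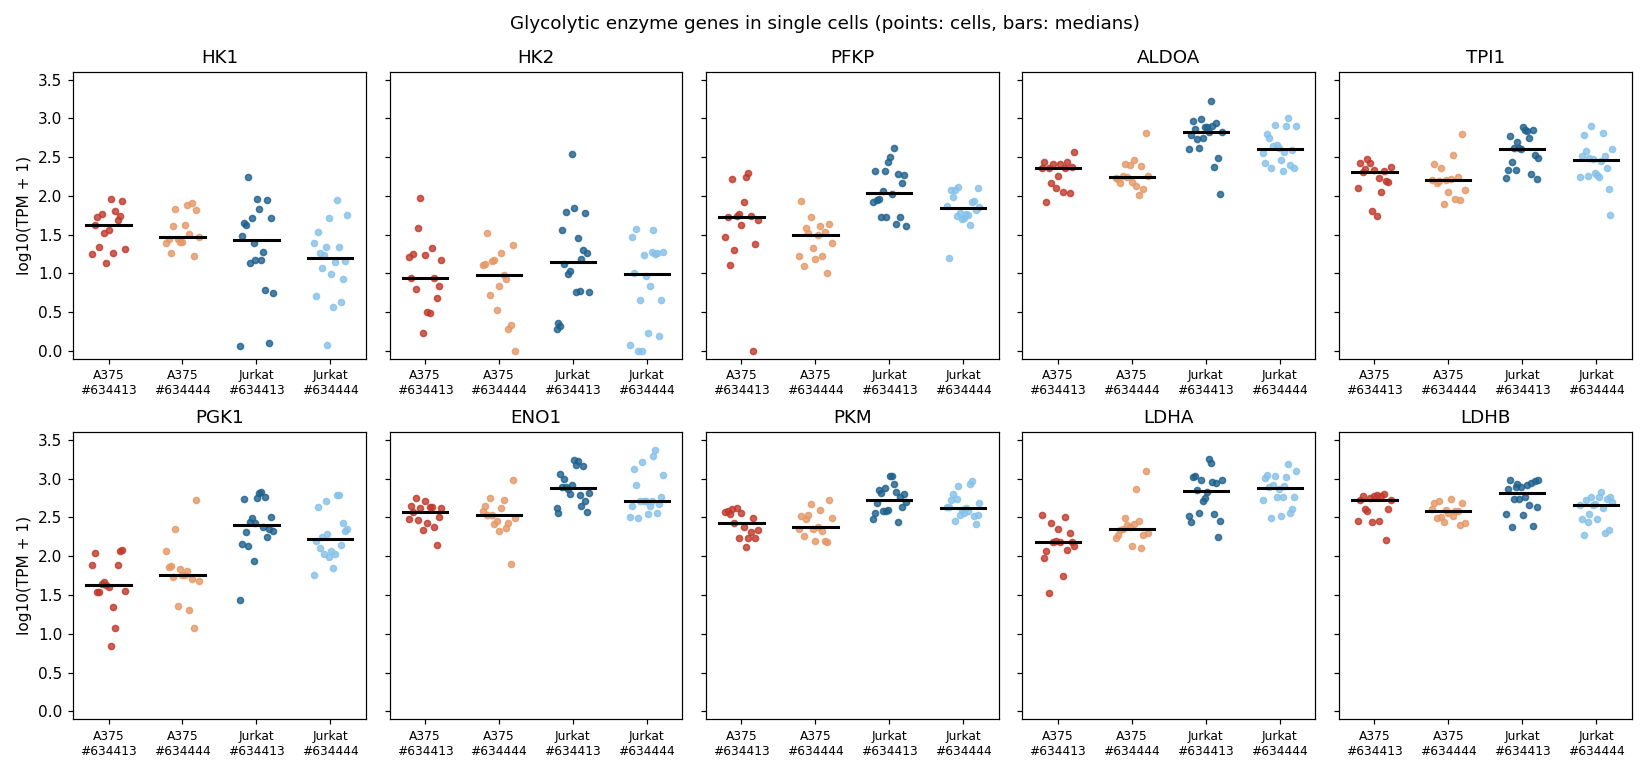
Level of each of the 10 genes in every kept cell, as log10(TPM + 1) (y axis), by cell line and kit (x axis). Points are cells (15 A375 and 18 Jurkat per kit) and bars are medians. Jurkat medians lie above A375 medians for PFKP through LDHB with both kits, and cells of the lines overlap in range for each gene.

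HK1 and HK2 encode the hexokinases that bind the outer mitochondrial membrane. HK1 (chr10:69269984-69401884, + strand, GRCh38) is the more broadly expressed and HK2 (chr2:74834127-74893359, + strand) is known for its rise in many tumours. With #634413, HK1 ranged from 12.5 to 89.7 TPM in A375 (median 40.7, n = 15) and from 0.158 to 177 TPM in Jurkat (median 26.5, n = 18). With #634444, it ranged from 15.8 to 79 TPM in A375 (median 28.7) and from 0.190 to 88.9 TPM in Jurkat (median 14.7). The Jurkat cells held both the highest and the lowest HK1 levels with each kit. All 15 A375 cells of #634444 lay above the Jurkat median, against 10 of 15 with #634413.

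In summed counts, the HK1 difference between lines took opposite signs in the kits. Its log2 fold was -0.37 (counting interval -0.45 to -0.28, 2042 against 2675 counts) with #634413 and 0.41 (0.30 to 0.52, 1614 against 1182 counts) with #634444. Both sizes were under 2-fold, and the sign with #634413 turned with the scale. As the difference in mean log2(TPM + 1), HK1 was higher in A375 with both kits, at 0.80 and 1.31. The median of all genes on that scale was itself 0.66 and 0.43, so the HK1 value with #634413 lay near that median. In summed counts, the difference between the kits' log2 folds was 0.78. Between kits, HK1 was lower with #634444 in Jurkat by 0.86 on the log2 scale (-0.86) and stood at -0.08 in A375. Leaving out Jurkat #634444 cell 3 alone moved the Jurkat value to -1.18, past 2-fold.

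HK2 ranged from 0.702 to 92.3 TPM in A375 (median 7.85) and from 0.953 to 351 TPM in Jurkat (median 13.3) with #634413. The corresponding ranges with #634444 were 0 to 32.5 TPM (median 8.70) and 0 to 36.9 TPM (median 8.79). HK2 was the lowest member and the most uneven between cells, with a coefficient of variation of 207% in Jurkat #634413. It had no count in 1 A375 and 2 Jurkat cells of #634444. The log2 fold of A375 over Jurkat was -0.83 (-0.93 to -0.74) with #634413 and -1.01 (-1.12 to -0.89) with #634444. The second value lies at the 2-fold line, and leaving out any of 16 single cells brought it under, to -0.78 without Jurkat cell 18.

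HK1 made up most of the hexokinase TPM in both lines. Its share of HK1 and HK2 was 75.7 ± 19.7% in A375 (n = 15) and 59.6 ± 32.8% in Jurkat (n = 17 with at least 20 counts of both genes together) with #634413. With #634444 it was 79.3 ± 16.8% and 63.8 ± 32.9% (n = 15 and 18). The differences of 16.1 and 15.5 percentage points were smaller than the pooled SD between cells, of 27.1 and 26.1. Block means were 71.4 to 77.7% in A375 and 42.3 to 69.7% in Jurkat with #634413, and overlapped with #634444. Single Jurkat cells ran from 0.418 to 97.5% with #634413, and with #634444 from 1.14% to cells with no HK2 TPM. As a difference of medians over cells the line differences were 8.98 and 3.73 percentage points. In counts, which are not per length, HK1 held 59.2% and 64.4% in A375 and 51.3% and 40.3% in Jurkat.

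At the level of transcripts, HK1 split differently with the kits in both lines. HK1-201, whose annotated first exon lies at chr10:69315785-69316014, took 62.6 ± 34.2% of HK1 counts in A375 (n = 15) and 47.7 ± 40.2% in Jurkat (n = 16) with #634413. With #634444 it took 15.8 ± 33.1% and 21.9 ± 38.8% (n = 15 in each). HK1-202, which starts at the exon chr10:69318847-69319010, took 20.6% and 22.4% with #634413 and 70.5% and 65.4% with #634444. HK1-201 exceeded HK1-202 in 12 of 15 A375 and 10 of 13 Jurkat cells of #634413. It did so in 3 of 15 and 3 of 14 cells of #634444, counting cells with at least 20 counts on the pair. The exon positions are those of GENCODE v44, where HK1-201 has 3229 bases against 3596 in the transcript that was quantified. The pair also ends at different positions there, 69401443 and 69401882, so the split is not tied to the first exons. The pair shares most exons, kallisto divides shared reads between them by estimate, and the transcripts were singled out after their values had been seen.

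PFKP, the platelet type of phosphofructokinase (chr10:3066333-3137718, + strand), differed between the lines. With #634413 it ranged from 0 to 195 TPM in A375 (median 53) and from 39.9 to 418 TPM in Jurkat (median 108). With #634444 the ranges were 9.18 to 84.6 TPM (median 30.1) and 14.9 to 130 TPM (median 68.2). The ranges overlapped, with 3 and 1 A375 cells above the Jurkat median. The log2 fold was -1.66 (-1.74 to -1.58, 1613 against 5177 counts) and -1.22 (-1.32 to -1.12, 1237 against 2806 counts).

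The paralogs of phosphofructokinase were used in different proportions. PFKP held 43.3 ± 24.4% of the TPM of PFKP, PFKL and PFKM in A375 (n = 14) and 84.7 ± 17.6% in Jurkat (n = 18) with #634413. With #634444 it held 34.6 ± 21% (n = 14) and 71.6 ± 16.4% (n = 18). The differences of -41.4 and -37.0 percentage points exceeded the pooled SD between cells of 21.3 and 18.9. In counts, which are not per length, the mean differences were -31.8 and -22.4 percentage points, and the summed counts gave PFKP 48.9% and 51.4% in A375 and 77.7% and 72.2% in Jurkat. PFKM, the muscle type, went the other way from PFKP. It was higher in A375 by a log2 fold of 4.55 (4.16 to 5.0, 1188 against 51 counts) with #634413 and 3.57 (3.14 to 4.02, 583 against 48 counts) with #634444. PFKM did not pass the count filter among Jurkat cells alone, so it entered these comparisons through A375 cells. The liver type PFKL stood at -1.52 and -0.85.

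The index numbers in the labels allow a split of each group into 3 blocks of up to 8 neighbouring indexes. The block means of the PFKP share lay between 35.3 and 46.8% in A375 and between 77.9 and 90.02% in Jurkat with #634413. With #634444 they lay between 17 and 44.5% and between 63.1 and 76.5%. The blocks of the lines did not overlap with either kit.

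ALDOA and TPI1 encode the aldolase and the isomerase that split fructose bisphosphate and interconvert its products. ALDOA (chr16:30064164-30070457, + strand) ranged from 82.5 to 364 TPM in A375 (median 231) and from 104 to 1673 TPM in Jurkat (median 659) with #634413. With #634444 it ranged from 101.4 to 638 TPM (median 175) and from 211 to 1009 TPM (median 398). No A375 cell of #634413 lay above the Jurkat median, and with #634444 cell 20 alone did. The log2 folds were -2.22 (-2.27 to -2.17) and -1.60 (-1.66 to -1.54), that is 4.66-fold and 3.03-fold higher in Jurkat.

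TPI1 (chr12:6867119-6870948, + strand) ranged from 54 to 299 TPM in A375 (median 205) and from 165 to 778 TPM in Jurkat (median 406) with #634413. The ranges with #634444 were 78.5 to 631 TPM (median 158) and 56.3 to 798 TPM (median 289), so the lowest cell was there a Jurkat cell. The log2 fold was -1.45 (-1.50 to -1.40) with #634413 and -1.01 (-1.06 to -0.95) with #634444. The latter is at the 2-fold line, and leaving out any of 14 single cells brought it under, to -0.89 without Jurkat cell 3.

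ALDOA held nearly all aldolase TPM in each group, with means of 95.5 ± 11.1% and 96 ± 5.80% in A375 and 94.3 ± 6.16% and 94.4 ± 8.46% in Jurkat. ALDOC, the aldolase best known from brain, was also lower in A375, by log2 folds of -3.71 (91 against 1208 counts) and -2.04 (245 against 980 counts). With #634444 its index blocks overlapped, and 9 of 18 Jurkat cells lay above its A375 median. Between kits in A375, ALDOC was itself past 2-fold, at 1.69 (#634444 over #634413).

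PGK1 (chrX:77910739-78129295, + strand), which makes the earlier ATP of the pathway, was among the genes with the widest difference. It ranged from 6.03 to 120 TPM in A375 (median 42.1) and from 26.2 to 664 TPM in Jurkat (median 253) with #634413. With #634444 it ranged from 11 to 522 TPM (median 56) and from 55.7 to 616 TPM (median 166). The A375 maximum of #634444 was cell 20, the next cell being at 225 TPM. The log2 folds were -2.30 (-2.36 to -2.24, 2689 against 13420 counts) and -1.49 (-1.55 to -1.43, 3243 against 8891 counts). Without cell 20 the second was -1.95. In A375, the kit difference of PGK1 of 0.53 (#634444 over #634413) went to 0.07 without the same cell.

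ENO1, the ubiquitous enolase (chr1:8861000-8879190, - strand), was abundant in every group. It ranged from 139 to 566 TPM in A375 (median 372) and from 355 to 1750 TPM in Jurkat (median 757) with #634413, and from 78 to 960 TPM (median 334) and 313 to 2309 TPM (median 518) with #634444. Its log2 folds were -1.66 (-1.69 to -1.63, 12720 against 40736 counts) and -1.36 (-1.39 to -1.33, 11519 against 28848 counts). ENO1 held 93.3 ± 8.50% and 94.4 ± 3.92% of the TPM of ENO1, ENO2 and ENO3 in A375 and 89.4 ± 8.36% and 90.3 ± 4.87% in Jurkat. The differences of 3.89 and 4.10 percentage points were smaller than the pooled SD between cells.

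PKM (chr15:72199029-72231819, - strand) encodes the pyruvate kinase that yields the later ATP of glycolysis and pyruvate. Its transcripts carry either of a pair of mutually exclusive exons, the M1 exon of adult muscle and brain or the M2 exon of proliferating cells. The pair is shown because the isoform share rests on reading them apart. Both have 167 bases (hg38, - strand), capitals mark the positions at which they differ, and they lie at chr15:72203022-72203188 (M1) and chr15:72202454-72202620 (M2).
PKM M1 exon: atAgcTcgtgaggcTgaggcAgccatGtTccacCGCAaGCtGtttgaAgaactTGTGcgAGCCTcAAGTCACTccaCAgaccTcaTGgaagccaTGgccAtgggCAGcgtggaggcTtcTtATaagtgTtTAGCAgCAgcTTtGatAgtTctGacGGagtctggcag
PKM M2 exon: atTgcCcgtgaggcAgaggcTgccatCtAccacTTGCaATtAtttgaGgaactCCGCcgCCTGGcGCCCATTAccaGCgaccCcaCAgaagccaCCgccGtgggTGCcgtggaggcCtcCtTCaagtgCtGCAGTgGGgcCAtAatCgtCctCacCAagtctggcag

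They differ at 62 of 167 positions, and their longest run without a difference is 10 bases. Of the 23 PKM transcripts that were summed, 5 hold the M1 exon and 3 the M2 exon.

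PKM as a whole ranged from 131 to 415 TPM in A375 (median 270.0) and from 271 to 1088 TPM in Jurkat (median 532) with #634413. The ranges with #634444 were 152 to 524 TPM (median 236) and 259 to 918 TPM (median 423). No A375 cell of #634413 and 2 of #634444 lay above the Jurkat median. The log2 folds of -1.41 (-1.44 to -1.38) and -1.21 (-1.24 to -1.17) ran from -1.47 to -1.32 and from -1.26 to -1.13 when single cells were left out.

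The M2 form made up most of the PKM reads that could be assigned. The M1 share of M1 and M2 TPM was 9.39 ± 17.1% in A375 and 7.71 ± 17.7% in Jurkat with #634413, and 3.21 ± 5.59% and 6.08 ± 7.31% with #634444 (n = 15 and 18). The SD exceeded the mean in each group, because many cells were listed at 0 and single cells reached 59.2% in A375 and 67.4% in Jurkat. In summed counts the M1 share was 7.26% (exact binomial interval 6.58 to 7.98%) and 2.68% (2.27 to 3.15%) in A375, and 6.23% (5.88 to 6.61%) and 5.27% (4.88 to 5.68%) in Jurkat. These intervals cover counting error only, and leave out the spread between cells and the estimated division of reads. The line differences of 1.68 and -2.87 percentage points in the means over cells were smaller than the spread between cells and opposite in sign.

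On average, transcripts with either exon held 57.9 to 67.1% of the PKM counts of a group, the others being annotated without either complete exon. The share therefore rests on the estimated division of reads between transcripts, with an average of 5.09 counts per A375 cell of #634444 on PKM-201, the longest M1 transcript, against 306 on the M2 transcript PKM-202.

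LDHA (chr11:18394560-18408425, + strand) and LDHB (chr12:21635342-21757857, - strand) encode the subunits of lactate dehydrogenase. Enzyme rich in LDHA is known from skeletal muscle and enzyme rich in LDHB from heart. The 250 bases before the first RefSeq start listed for each gene are printed because LDHA and LDHB differed between the lines by unequal amounts, and E-box and hypoxia response element letters are known features of the LDHA promoter. They come from RefSeq (GRCh38, gene strand) and span chr11:18394313-18394562 for LDHA and chr12:21657843-21658092 for LDHB. The gene spans above are those of GENCODE v44 and cover all transcripts of a gene, so that the LDHB window lies within the longer span of its gene. Capitals mark CACGTG and ACGTG on either strand.
LDHA promoter: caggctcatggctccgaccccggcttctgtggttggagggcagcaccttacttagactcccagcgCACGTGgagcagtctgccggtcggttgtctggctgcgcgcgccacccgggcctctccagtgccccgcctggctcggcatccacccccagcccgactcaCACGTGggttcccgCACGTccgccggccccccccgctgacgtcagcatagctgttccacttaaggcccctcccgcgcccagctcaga
LDHB promoter: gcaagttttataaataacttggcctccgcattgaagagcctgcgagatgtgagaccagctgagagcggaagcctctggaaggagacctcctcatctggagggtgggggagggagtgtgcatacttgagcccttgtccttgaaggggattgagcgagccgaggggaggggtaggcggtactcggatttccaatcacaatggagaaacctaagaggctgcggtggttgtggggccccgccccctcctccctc

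The LDHA window holds CACGTG at -185 to -180 and at -87 to -82 from the start, and an ACGTG match outside these at -73 to -69. The LDHB window holds neither, and neither window holds GCGTG. Matches were searched on both strands, and each CACGTG includes an ACGTG match on either strand. Of 27305 promoter windows of this length, 6.5% hold CACGTG, 18.7% ACGTG and 31.9% GCGTG. Among the 10 members the numbers with a match were 1, 4 and 3. These letters are a description of the windows only.

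LDHA ranged from 32.7 to 336 TPM in A375 (median 152) and from 178 to 1784 TPM in Jurkat (median 697) with #634413. With #634444 it ranged from 128 to 1255 TPM (median 222) and from 308 to 1550 TPM (median 760). No A375 cell of #634413 lay above the Jurkat median, and with #634444 cell 20 alone did. Its log2 fold was, with that of PGK1, the widest of the 10 with #634413, at -2.30 (-2.36 to -2.25, 3303 against 16545 counts) with #634413 and -1.72 (-1.77 to -1.67, 4224 against 13550 counts) with #634444. These correspond to 4.93-fold and 3.29-fold higher levels in Jurkat. Without cell 20 the #634444 value was -1.94, beside -1.95 for PGK1.

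LDHB, in contrast, differed by less than 2-fold. It ranged from 159 to 627 TPM in A375 (median 523) and from 234 to 962 TPM in Jurkat (median 659) with #634413, and from 253 to 543 TPM (median 377) and 189 to 675 TPM (median 456) with #634444. The log2 folds were -0.75 (-0.79 to -0.72) and -0.40 (-0.44 to -0.35). Of the members, LDHB was the one with the least spread between A375 cells of #634444, with a coefficient of variation of 24.2%.

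The LDHA share of LDHA and LDHB TPM was lower in A375 with both kits. It was 27.3 ± 14.4% in A375 and 51.6 ± 18.7% in Jurkat with #634413, and 41.2 ± 14.2% and 62.4 ± 13.1% with #634444 (n = 15 and 18). The differences of -24.3 and -21.2 percentage points exceeded the pooled SD between cells of 16.7 and 13.7. LDHA was below LDHB in 13 of 15 A375 cells of each kit, and in 9 of 18 and 3 of 18 Jurkat cells. Block means lay between 18.4 and 36.1% in A375 and between 46.2 and 54.5% in Jurkat with #634413, and between 33.5 and 50.6% and between 57.7 and 67.2% with #634444, without overlap.

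The share also moved with the kit, and it was higher with #634444 by 13.9 percentage points in A375 and 10.7 in Jurkat. Both values were smaller than the pooled SD between cells, of 14.3 and 16.2. In summed counts the LDHA share was 26.7% (25.9 to 27.5%) and 37.5% (36.6 to 38.4%) in A375, and 51.6% (51.0 to 52.1%) and 60% (59.4 to 60.6%) in Jurkat. These intervals, too, cover counting error only.

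**Figure D3:**
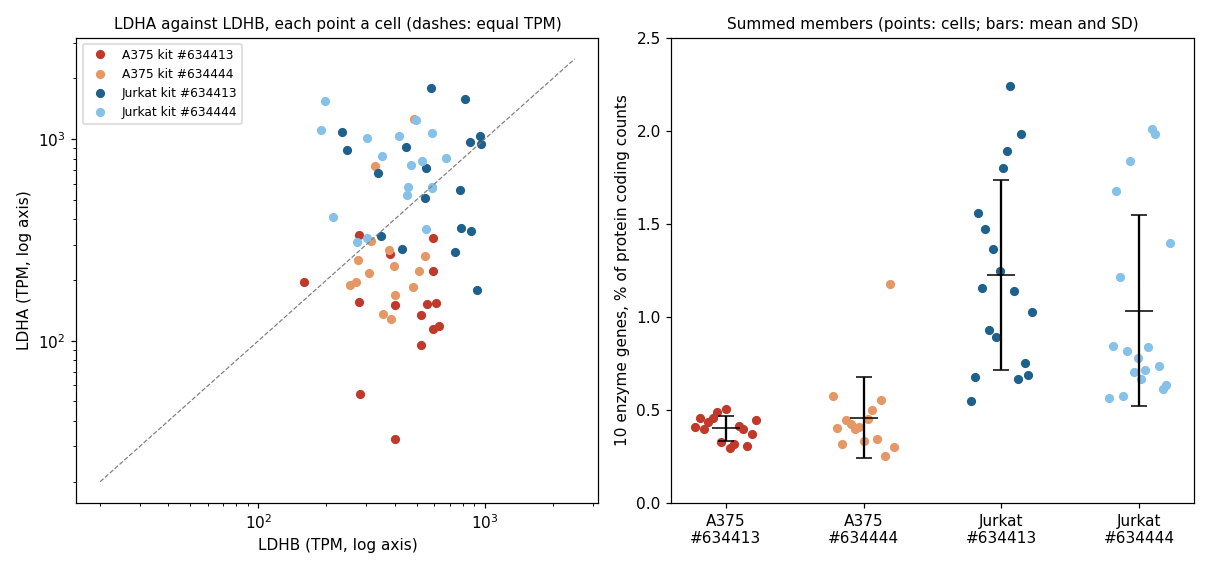
Left, LDHA against LDHB in TPM on log axes, with each kept cell as a point and a dashed line at equal levels. Right, counts of the 10 genes together as a percentage of protein coding counts per cell, with mean and SD. LDHA lies below LDHB in 13 of 15 A375 cells of each kit, and 1 A375 cell of #634444 stands apart at 1.18% on the right.

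**Figure D4:**
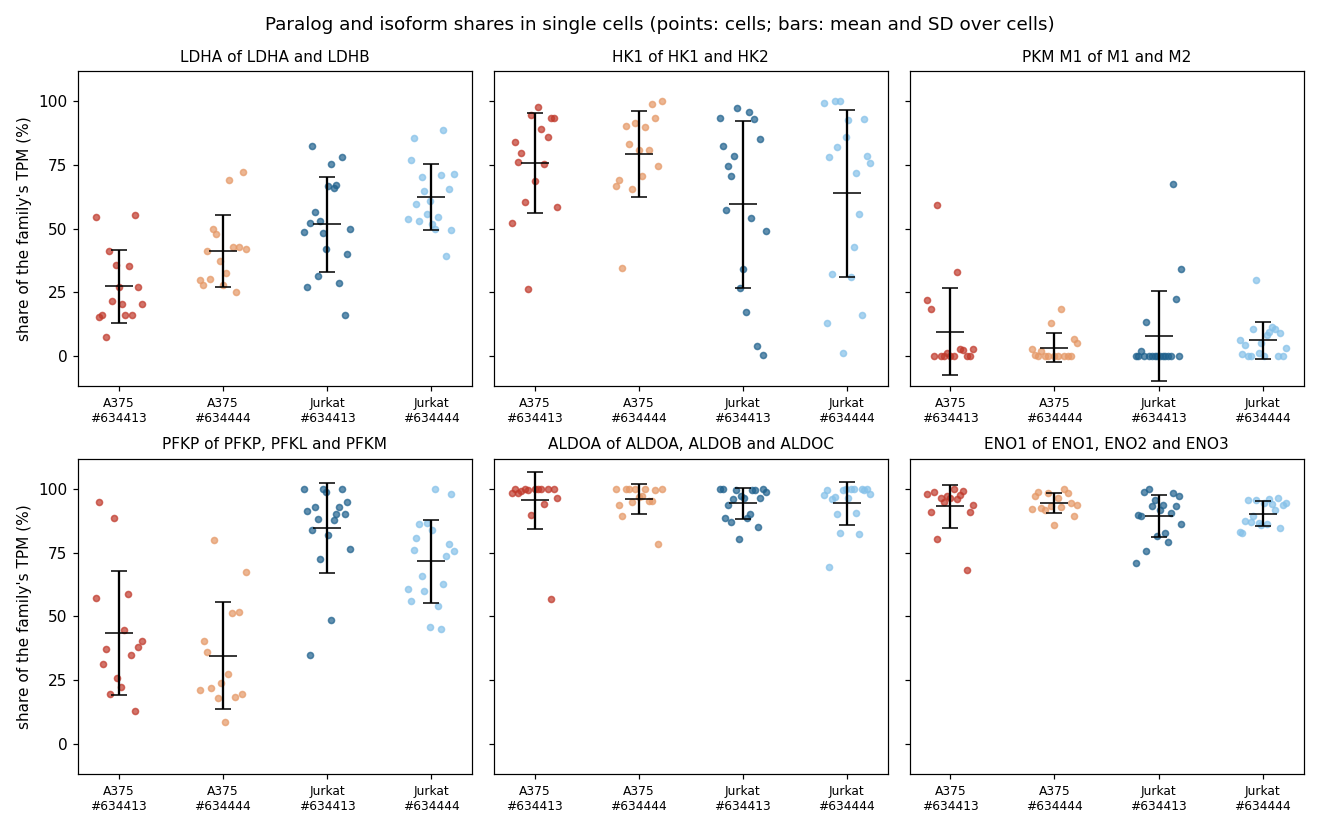
Share of 1 paralog or isoform in its family, in percent of TPM (y axis), by cell line and kit (x axis), for cells with at least 20 counts over the family. Points are cells and bars are mean and SD over cells. The lines separate most for PFKP, at 43.3 and 84.7% with #634413, and for LDHA, at 27.3 and 51.6%, while ALDOA and ENO1 hold about 90% or more in each group.

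The line difference had the same sign with both kits for 9 of the 10 members in summed counts, all but HK1. Between kits no member was past 2-fold in summed counts, in A375 (10.5% of 13463 genes) or in Jurkat (13.4% of 10624), though HK2 in Jurkat was at -1.04 in mean log2(TPM + 1). The median of all genes in Jurkat was 0.37 on that scale. The log2 folds of #634444 over #634413 ran from -0.40 for HK2 to 0.61 for LDHA in A375 and from -0.86 for HK1 to 0.03 for LDHA in Jurkat. The line folds of the kits differed by -0.17 (HK2) to 0.81 (PGK1) on the log2 scale, and none of the 10 passed 1 in summed counts, as 25.9% of 12290 genes did. PGK1 passed it with edgeR, at 1.01, and HK1 and PGK1 did with DESeq2 size factors, at 1.02 and 1.11. Without A375 #634444 cell 20 the value of PGK1 in summed counts was 0.35. The line fold was the smaller with #634444 for 8 members. In Jurkat all index blocks of #634444 lay below those of #634413 for 4 of the 10 members, PFKP, ALDOA, TPI1 and LDHB, where this held for 5.47% of genes compared.

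The index blocks of A375 all lay below those of Jurkat for 9 of 10 members with #634413, where this held for 20.6% of genes compared, and for 8 of 10 with #634444, where it held for 24.7%. The members outside this count were HK1 with both kits and HK2 with #634444.

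Of the other glycolysis genes, 20 were listed and most were too low to be compared. With #634413, 7 of the 8 compared were past 2-fold lower in A375 (GPI, PFKL, ALDOC, GAPDH, PGAM1, ENO2 and ENO3) and 1 was higher (PFKM), with a median log2 fold of -1.93. With #634444, 7 of 9 were lower (GPI, ALDOC, GAPDH, BPGM, PGAM1, ENO2 and ENO3) and PFKM was again higher, with a median of -1.28. Over all genes compared, 22.3% and 21.1% were past 2-fold lower and 25.6% and 24.6% higher. ENO3, with 58 against 415 and 75 against 218 counts, did not pass the count filter among A375 cells alone. PFKM did not pass it among Jurkat cells alone. Each thus entered through the line where it was higher, which set its direction, and both are in the counts and medians above. This list, too, was chosen with earlier results of these data known. GAPDH, glyceraldehyde phosphate dehydrogenase, had log2 folds of -1.53 (21984 against 64604 counts) and -1.18 (19936 against 44095 counts). PGAM1, the mutase ahead of enolase, had -2.22 and -2.39, and the isomerase GPI had -1.64 and -1.28.

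The transporters and regulators around the pathway were mixed. Of 21 listed, 17 were compared with #634413, of which 4 were past 2-fold higher in A375 and 7 lower, and 19 with #634444, of which 3 were higher and 6 lower. Over all genes these directions took 25.6% and 22.3% with #634413 and 24.6% and 21.1% with #634444. The list medians of -0.59 and -0.81 stood nearer to 0 than those of the enzymes. SLC2A3, the GLUT3 glucose transporter, was higher in A375 with both kits, at 1.38 and 2.43, whereas SLC2A1 (GLUT1) was under 2-fold at -0.93 and -0.81. The lactate transporter SLC16A1 (MCT1) was at 1.08 and 0.77. PFKFB4, which sets the level of the activator fructose 2,6-bisphosphate, was lower in summed counts, at -2.30 and -1.20. With #634444, however, only 2 of 15 A375 cells lay below its Jurkat median and 8 of 18 Jurkat cells above its A375 median. Its index blocks overlapped there. The pyruvate carrier subunit MPC2 was lower at -2.77 and -1.55. The pyruvate dehydrogenase kinase PDK1 was at -1.96 and -0.96. PDK4, counted among the higher genes with #634444, had 476 counts in A375 and 0 in Jurkat. It passed the filter through A375 cells alone, which set its direction, and with #634413 it was not compared. Its log2 fold against a limit of 3 counts over the group was 7.27, with a lower counting limit of 6.97. SLC16A3, counted among the lower genes with #634444, had 32 counts in A375 and 113 in Jurkat. It did not pass the filter among A375 cells alone, so it entered through Jurkat cells, which set its direction. With #634413 SLC16A3 was not compared.

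Of 6 factors known to act on the choice of the PKM exons, 2 were past 2-fold lower in A375 with #634413, PTBP1 at -1.12 and NEK2 at -2.23, and 0 with #634444, where they stood at -0.48 and -0.89. Of all genes, 22.3% and 21.1% were past 2-fold lower. HNRNPA1 was at -0.54 and -0.30 and HNRNPA2B1 at -0.73 and -0.51. All 6 lay below 0 with both kits, as did 49.8% and 50.4% of all genes compared.

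Within groups, the correlation of the members from cell to cell was positive in the median over pairs, with a wide range. Other gene pairs were not set beside them, so this is not shown to be particular to the members. Over the 45 pairs of members, the median Spearman correlation was 0.21 and 0.45 in A375 and 0.45 and 0.51 in Jurkat, for #634413 and #634444 (n = 15 and 18 cells). The pairs ran from -0.42 to 0.59 and from 0.09 to 0.84 in A375. In Jurkat they ran from -0.38 to 0.87 and from -0.26 to 0.84. TPI1 and ENO1 had the highest mean over the 4 groups, at 0.69, with a range from 0.50 to 0.87. The lowest means over the 4 groups were those of LDHB, at -0.10 with PKM and -0.03 with each of PGK1 and LDHA. LDHB did not stand apart in A375. There its values ran from -0.26 with PGK1 to 0.59 with HK1 with #634413. With #634444 they ran from 0.11 with LDHA to 0.72 with ENO1. The cells of a group share library preparation and differ in depth, so these values are a description. By the same measure, the genes outside the lists with the highest mean correlation with the members were PTMA (0.58), AK4 (0.58), BNIP3 (0.54), IGFBP2 (0.52) and ARHGAP44 (0.51). In A375 #634413, BNIP3 was at 0.08 and IGFBP2 at -0.01.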

How the data were processed

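Total RNA of 78 wells labelled as single sorted cells was sequenced as paired-end reads. The authors trimmed reads with cutadapt and quantified Ensembl v91 transcripts and spike sequences with kallisto 0.43.1 in its stranded mode. The deposited values are expected counts, which kallisto estimates per transcript and which are not normalized, and the authors deposited TPM beside them. Their processing notes also name STAR 2.5.3.

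Of 200206 Ensembl targets, 195850 were matched to GENCODE v44 and summed to genes. The 265 rows of spikes and ribosomal DNA, 5.98 to 20.8% of counts (median 11.1%), were left out of library sizes. Cells were kept with at least 203424 counts (25% of the median total) and at least 50% protein coding counts, which left 66. Counts were rounded. Folds are ratios of summed counts, scaled to the summed library, for genes with at least 5 counts in 25% of cells, with sums under 3 set to 3. Intervals are exact binomial at 95%. Shares need 20 counts over the family.

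Each sample is 1 cell, so the planned tests of edgeR and permutation across cells were not used. Folds of edgeR 4.0.16 and DESeq2 1.42.0 (R 4.3.3), log2(TPM + 1), log2(TPM + 10), mean CPM, other filters, all wells and each cell left out were alternatives. The edgeR folds, mean CPM and each cell left out were chosen after seeing the data. The calculation of folds was run on simulated counts of independent cells with set folds, which bears on the calculation only. No doublets were called. The text names the 10 members, listed genes past 2-fold or described with them, and the 5 genes most correlated with the summed counts of the members. The members and lists were chosen with earlier results of these data known. Reads from pseudogenes cannot be told apart by count, and pseudogenes held at most 1.31% of the counts of a member and its copies (PGK1). Tables and plots were made in Python 3.11.15 with pandas 2.3.3, numpy 2.4.6, scipy 1.17.1 and matplotlib 3.10.9.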

Additional observations from a re-analysis of the deposited data

Results flagged for a closer look

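The 12 A375 wells left out of all comparisons were looked at for members. In 6 of them the 10 genes together had more than the 3 counts that a count of 0 allows. With #634413, A375 cell 8 held 37 counts of the members, cell 11 held 33.0, cell 13 held 6.0 and cell 15 held 29. With #634444, cell 1 held 5.0 counts and cell 10 held 589. Cell 10 had 501269 counts in all, of which 44.4% were protein coding, just under the limit of 50%. The kept cell with the fewest member counts had 703.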

How the results depend on the processing

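The number of genes past 2-fold moved with the filter and the scale. With no filter beyond 1 count in 3 wells it was 12317 and 13605 between lines (#634413 and #634444), 7314 and 6278 between kits (A375 and Jurkat) and 12523 for the difference between the kits' line folds. With log2(TPM + 10) it was 2271 and 2055, 92 and 163, and 340. With all deposited wells it was 921 between kits in A375. With log2(TPM + 1) the split moved to 4652 higher and 1384 lower with #634413 and 4096 and 1662 with #634444, and the median of all genes to 0.66 and 0.43. On that scale HK2 with #634444 turned from lower to 0.082, PDK2 with that kit turned to 0.51, HK1 stood at 0.80 and 1.31, and 4 members stayed past 2-fold lower with #634444. DESeq2 size factors moved the median of all genes to -0.13 and -0.03 and edgeR to 0.10 and 0.10, and each left 6 members past 2-fold lower with #634444, without HK2 and TPI1. In all, the number of members past 2-fold lower ran from 7 to 8 with #634413 and from 4 to 8 with #634444. The other 34 counts of genes stayed within 1.5 times. For shares, 164 of 164 differences moved by less than 1 pooled SD between cells. That SD was wide, so this is a loose limit, and the PFKP and HK1 differences changed within it as given above. Library size scaling is already the main setting. The index block fit, the fit of all 4 groups and the permutation tests were not run, because each group is 1 sample. No paired analysis was possible because the replicate numbers were given in accession order and no test was made.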
